A study of Rattus norvegicus with 90 samples.

Results

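Rat renal cells that had been exposed to the high dose (0.5 mM) of thioacetamide-S-oxide were compared between 24 h and 9 h of exposure, with 5 RNA-seq libraries at each time, 10 of the 90 libraries of the series. The libraries were chosen by their labels for cell type, dose and duration, and the transcripts by an Ensembl rat identifier. Cells of all groups used here came from Sprague-Dawley rats and were grown for another 18 h before the compound or the vehicle was added. The renal cells, labelled as tube epithelial cells from kidney, were bought cryopreserved as proximal tubular epithelial cells and their vehicle was the maintenance medium EpiCM. Beside the high-dose cells stand renal cells given vehicle or a low dose (0.125 mM) for the same times, and hepatocytes at 0.125 mM and cardiomyocytes at 1.5 mM, the high doses of those cells, with 5 libraries in each group. Neither the labels nor the methods say that the 5 libraries of a group came from separate animals, so the p-values measure the spread between these cultures, which may be technical.

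The proximal tubule is the part of the nephron that takes back most of the filtered salt, water, glucose and amino acids, and it takes up and metabolizes many foreign compounds. Thioacetamide is a classic toxicant that becomes harmful after oxidation, first to the S-oxide and then to a reactive S,S-dioxide that binds proteins and lipids. The S-oxide added to a culture therefore stands for a step after the first oxidation, and the time comparison asks how the RNA of cells kept in the same dose differed between an early and a later time. Because renal cells also change with time in culture, each change was set against the same interval in vehicle.

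Levels are given as TPM, the share of a library's transcripts corrected for their length, and changes as log2 fold changes of counts, 24 h over 9 h, so that a positive value is higher at 24 h. A transcript was called when its adjusted p-value was at most 0.05 and its natural-log fold change was at least 0.41 in size, which is 1.51-fold. The tables name transcripts by identifier alone and 0 of 40071 could be paired with a gene, so pathways were not scored, and proximal tubule markers could not be used to check the cell label. In these bulk cultures, fewer cells of a kind and less RNA per cell cannot be told apart.

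The libraries at the high dose held between 25102100 and 37837044 estimated counts at 9 h and between 25095387 and 39153378 at 24 h. None of 8 library measures differed between the times, among them the total, the share of counts on transcripts, the number of transcripts detected and the implied fragment length (two-sided exact permutation test, every adjusted p = 0.881). Outside the high dose, vehicle library MS-137 (24 h) held 11415878 counts, and low-dose library MS-145 (24 h) held 15078809 counts with 46.4% of its transcript counts on its 100 most counted transcripts. Vehicle library MS-140 (24 h) is left out beside MS-137 in some comparisons, a choice made after the values were seen, and the main counts and differences that rest on these libraries are given with and without them.

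At the high dose, 2397 of 17941 transcripts tested (13.4%) differed between 24 h and 9 h. Of these, 1081 (6.03%) rose and 1316 (7.34%) fell. The median change was 0.84 on the log2 scale among those that rose and -0.91 among those that fell. Most changes were small: 694 of the transcripts that rose and 780 of those that fell changed less than 2-fold. Increases reached farther than decreases, since 84 transcripts (0.468%) rose 4-fold or more and 43 (0.240%) fell by that much, and 36 rose more than 8-fold while 8 fell by that much. The excess of decreases depended on the fold threshold, since 3840 transcripts were higher and 3612 lower when the adjusted p-value alone was asked for. At an unadjusted p under 0.05 there were 8930 transcripts (49.8%).

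**Figure D1:**
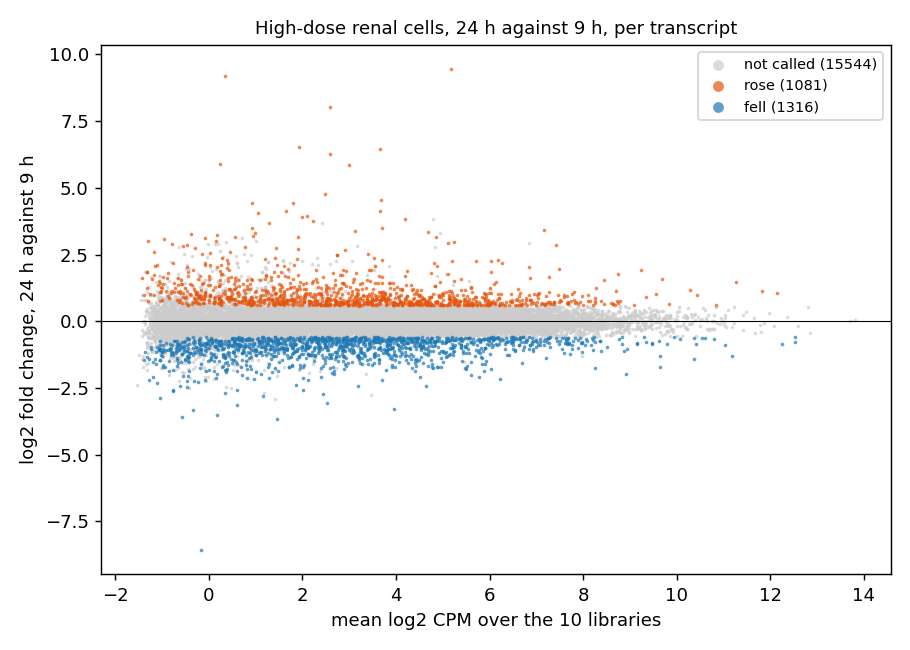
Change of each transcript in high-dose renal cells (vertical axis, log2 fold change of 24 h over 9 h) against its mean level over the 10 libraries (horizontal axis, log2 CPM, counts scaled to a common library total). Orange points are the 1081 transcripts that rose, blue points the 1316 that fell and grey points those not called; the changes farthest from 0 lie among increases.

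For 2065 of the 2397 called transcripts (86.1%), all 5 libraries of one time lay above all 5 of the other, and the same was true of 33.4% of all transcripts tested. The changes farthest from 0 were also the least certain in identity. Of the 36 transcripts that rose more than 8-fold, 5 had whole estimated counts in all 10 libraries and 23 had groups that did not overlap. Of all 1081 that rose, 418 (38.7%) had whole counts, against 40.4% of all tested, and of the 1316 that fell, 627 (47.6%) did. A count that is not whole was divided by the quantification among transcripts that share sequence. The transcript set itself changed little: no transcript was at 0 in all 5 libraries of one time and at 5 or more counts in all 5 of the other, and 16822 had at least 5 counts in all 10 libraries.

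The called transcripts had lower levels than most, and ordinary lengths. Their median length was 2140 bases for those that rose and 2319 bases for those that fell, against 2175 bases for all tested. Their median level over the 10 libraries was 5.40 TPM and 4.45 TPM, against 9.77 TPM for all tested. Between 1 and 3 TPM, 8.39% of transcripts rose and 10.5% fell, and between 30 and 100 TPM, 3.86% rose and 4.52% fell, while the median standard error of the log2 change was 0.20 in the first range and 0.06 in the second.

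As a share of a library's TPM, the transcripts that rose made up 3.91% ± 0.19 (SD, n = 5) at 9 h and 7.86% ± 0.79 at 24 h. Those that fell went from 7.57% ± 0.22 to 4.20% ± 0.45. Since the transcripts were chosen by this contrast, both shares are a description. In vehicle, which played no part in the choice, the risen transcripts stood at 2.98% ± 0.09 at 9 h and 3.22% ± 0.35 at 24 h, and the fallen at 7.52% ± 0.06 and 7.36% ± 0.69. At the low dose, the risen transcripts held between 2.996% and 4.22% of TPM at 9 h and between 3.41% and 5.93% at 24 h, and the fallen between 6.49% and 7.84% and between 4.16% and 7.68%. In vehicle and at the low dose the ranges of both times overlapped for either set.

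**Figure D2:**
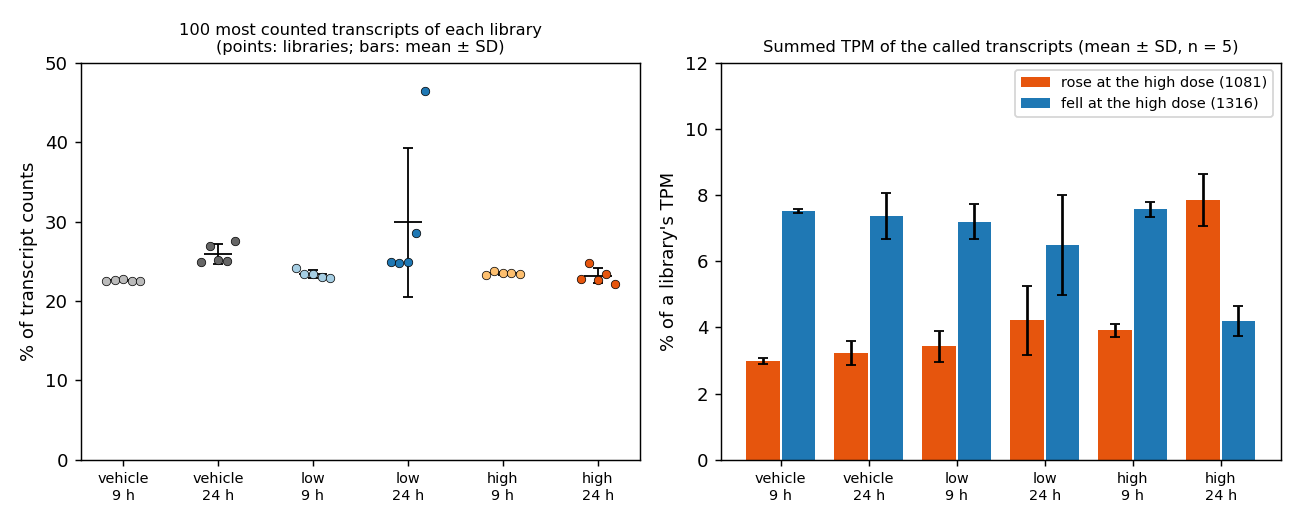
Left, the share of transcript counts held by the 100 most counted transcripts of each library, in 6 renal groups of 5 libraries (points) with mean and SD; right, the summed TPM of the transcripts that rose (orange) or fell (blue) at the high dose, as a percent of all TPM (bars, mean and SD of 5 libraries). The 100 most counted transcripts held 23.5% and 23.2% at the high dose and 22.6% and 25.9% in vehicle, and the orange bar is highest in the 24 h high-dose group.

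The transcript ENSRNOT00000019501 (1984 bases) was the most abundant of those that fell at least 2-fold, and its counts were whole in every library. At 9 h it stood at 1445, 1439, 1394, 1462 and 1381 TPM in libraries MS-131 to MS-135. At 24 h it stood at 544, 539, 540.1, 536 and 515 TPM in libraries MS-146 to MS-150. The groups were far apart and each was narrow. The log2 change was -1.40 (SE 0.03, edgeR adjusted p = 1.21e-09), which is 2.64-fold lower. In vehicle it lay between 1074 and 1090.05 TPM at 9 h and between 920.5 and 1009.6 TPM at 24 h, a log2 change of -0.07 that was under the fold threshold. The change at the high dose was more negative than in vehicle by -1.32 (SE 0.04, adjusted p = 5.09e-15) and than at the low dose by -1.50 (SE 0.07, adjusted p = 2.63e-11), and these differences were -1.32 without MS-137 and MS-140 and -1.56 without MS-145. The transcript thus crossed the vehicle level: the high dose was 0.39 above vehicle on the log2 scale at 9 h, under the fold threshold, and stood at -0.93 relative to it at 24 h, which was called. At the low dose it lay between 839 and 889 TPM at 9 h, and at 24 h between 892 and 937 TPM in 4 libraries and at 370.1 TPM in MS-145.

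The transcript ENSRNOT00000044711 (908 bases) was the most abundant of those that rose at least 2-fold. It lay at 4961, 5746, 5094, 5428 and 5255 TPM in the 9 h libraries and at 10761, 13572.5, 9623, 12339.9 and 8998 TPM in the 24 h libraries, in the order of their numbers. Every 24 h library was above every 9 h library, and the 24 h values were spread more widely. Counts of this transcript were not whole in MS-131 (63564.1), MS-133 (77077.5) and MS-134 (72867.5), so it too rested on divided counts. Its larger counts are listed without decimals. The log2 change was 1.08 (SE 0.12, adjusted p = 3.58e-05). It was also called at the low dose (0.89, adjusted p = 0.0064, and 0.902 without MS-145), while in vehicle the change was 0.49, under the fold threshold, and 0.26 without MS-137 and MS-140. The difference between the high dose and vehicle was 0.59 (SE 0.17, adjusted p = 0.0129), just under the fold threshold. It was 0.64 without vehicle library MS-137 and 0.82 without both MS-137 and MS-140, but these hold the highest 24 h vehicle values of this transcript, so leaving them out raises the difference by construction and tests nothing. The difference from the low dose was 0.20 (SE 0.19, adjusted p = 0.589), and 0.16 without MS-145.

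The transcript ENSRNOT00000090258 (2661 bases) had the largest increase among called transcripts whose groups did not overlap, given an average of at least 3 log2 CPM. At 9 h it lay at 0.892, 1.85, 2.29, 1.03 and 0.346 TPM, and at 24 h at 27.2, 20.6, 5.70, 30.6 and 6.78 TPM, again in library order. The 24 h libraries fell into a higher set (MS-146, MS-147 and MS-149) and a lower pair (MS-148 and MS-150), all above the 9 h libraries. The same division appeared in the share of counts on transcripts, which was 93.6%, 94.4% and 93.9% in the first 3 and 92.2% and 92.4% in the pair. The log2 change was 3.84 (SE 0.61, adjusted p = 5.21e-04), and 3.82 (SE 0.43, adjusted p = 5.41e-05) with that share as a covariate. The share averaged 93.4% at 9 h and 93.3% at 24 h, so the covariate had little room to move the change between the times, and the division within the 24 h group was not tested. Its counts were whole in none of the high-dose libraries. In vehicle and at the low dose it was near 0 in most 24 h libraries and at 14.7 TPM in MS-140 and 13.3 TPM in MS-145. The change at the high dose did not pass the test of a difference from vehicle (1.37, SE 1.67, adjusted p = 0.587) or from the low dose (1.05, SE 1.98, adjusted p = 0.821). Without MS-137, which had few counts, the difference from vehicle was 1.11 (adjusted p = 0.664). It was 4.38 when MS-140 was left out as well, and the difference from the low dose was 5.05 without MS-145. MS-140 and MS-145 hold the highest values of this transcript in their groups, so the last 2 values show how far those libraries decide the difference and are no test of it. With all 6 renal groups in one fit, the change with time was as large (3.85, SE 1.59) but was not called (adjusted p = 0.0713).

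The transcript ENSRNOT00000075306 (1593 bases) had the largest decrease by the same rule. It lay at 29.5, 38.9, 16.2, 29.3 and 19.7 TPM at 9 h. At 24 h it was listed at 0 in MS-146 and stood at 0.157, 7.71, 0.779 and 4.02 TPM in the other libraries, with MS-148 and MS-150 the highest. The groups did not overlap, and the log2 change was -3.30 (SE 0.77, adjusted p = 0.0058). Its counts were rarely whole (10% of the libraries), and in vehicle and at the low dose its level ranged widely within each group. The difference from vehicle was -2.14 (SE 1.17, adjusted p = 0.178), -2.39 without MS-137 and -2.77 when MS-140 was left out as well. The difference from the low dose was -4.14 (SE 1.70, adjusted p = 0.128), and -4.43 without MS-145. These libraries are among the lowest for this transcript in their 24 h groups, so leaving them out makes the differences larger by construction and tests nothing.

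**Figure D3:**
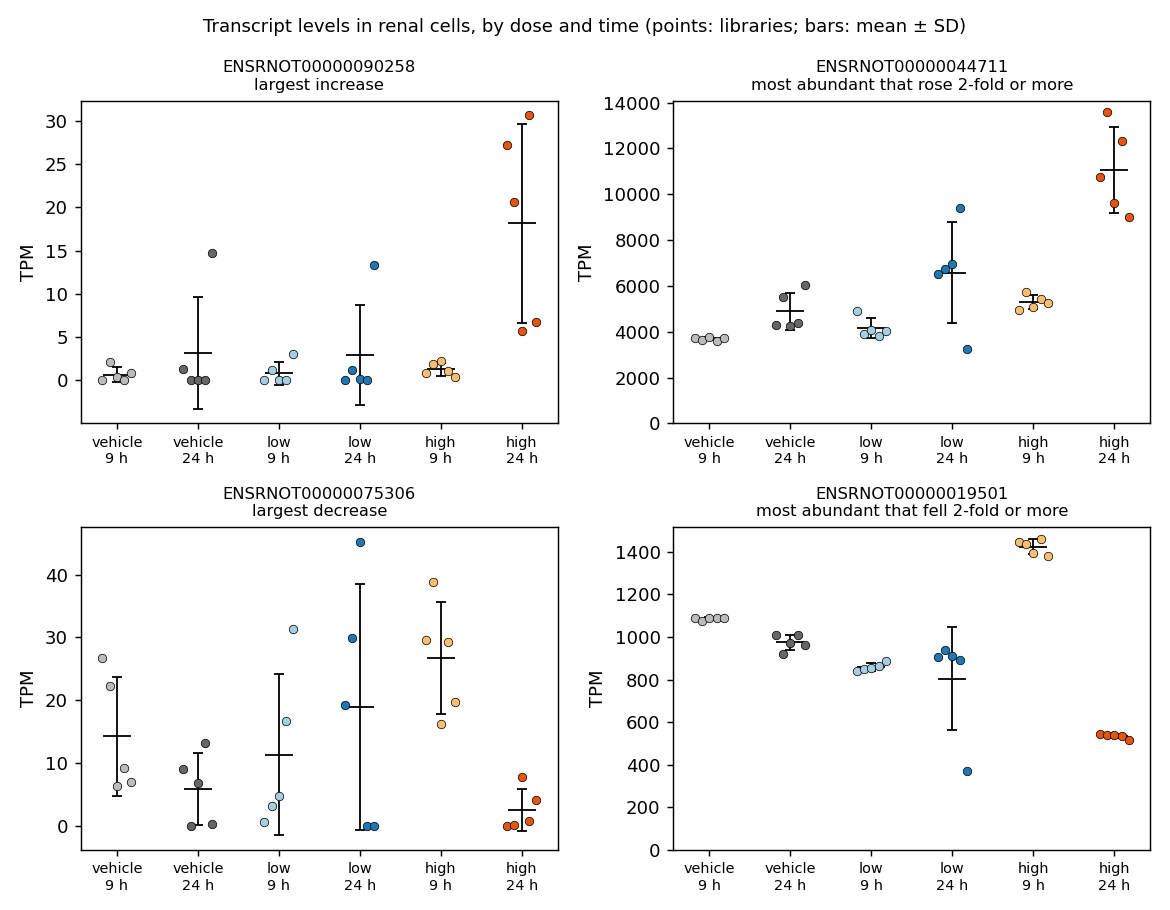
TPM (vertical axes, linear) of 4 transcripts in each of 30 renal libraries, by dose and time (points), with the mean and SD of each group of 5. ENSRNOT00000019501 is between 1381 and 1462 TPM in the 9 h high-dose libraries and between 515 and 544 TPM in those at 24 h, while ENSRNOT00000090258 and ENSRNOT00000075306 vary widely within groups.

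Because the largest estimates rested on divided counts, the 10 largest increases and the 10 largest decreases among called transcripts with whole counts in all 10 libraries, groups that did not overlap and the same minimum level were also described. They were chosen after their values were seen, and they are given by length. The increases among them ran from 1.48 to 2.86 on the log2 scale and the decreases from -1.75 to -2.42. All 20 were also called in the same direction by the interaction term against vehicle, as were 14.8% of all transcripts tested in either direction, but the 20 were chosen for their change in the same high-dose libraries, so nothing is read from that count. Among the increases, 1 was called higher and 2 were called lower with time in vehicle, and among the decreases, 1 was called lower and 1 higher, beside 4.55% of all tested in either direction there.

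The leading increase was a transcript of 3666 bases. It stood at 19.1, 15.3, 15.2, 15.3 and 15.0 TPM at 9 h and at 123.5, 87.8, 121.8, 104.5 and 139.4 TPM at 24 h, a log2 change of 2.86 (SE 0.11, adjusted p = 2.40e-08). In vehicle the same transcript moved the other way, from 6.27 ± 0.39 TPM (SD, n = 5) to 2.59 ± 0.32 TPM, with a log2 change of -1.19 that was called, and at the low dose it went from 5.49 ± 0.75 to 2.82 ± 1.08 TPM, also called. The change at the high dose exceeded that in vehicle by 4.05 (SE 0.14, adjusted p = 3.28e-14). Relative to vehicle of the same time, it was already higher at 9 h by 1.35 and reached 5.41 at 24 h. High-dose hepatocytes held 9.79 ± 1.90 and 9.87 ± 0.99 TPM at 9 and 24 h, beside 7.26 ± 1.02 and 9.64 ± 5.42 TPM in hepatocyte vehicle. High-dose cardiomyocytes held 0.339 ± 0.154 and 0.191 ± 0.068 TPM, beside 0.305 ± 0.092 and 0.984 ± 0.313 TPM in cardiomyocyte vehicle.

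A transcript of 926 bases rose from between 34.8 and 44.8 TPM to between 165.1 and 219.7 TPM, a log2 change of 2.28 (SE 0.09). It did not differ from vehicle by a called amount at 9 h (0.29) and was 2.73 above vehicle at 24 h. In hepatocytes and cardiomyocytes at their own high doses it was called lower with time, with log2 changes of -0.62 and -1.84. Its mean at 9 h already lay above vehicle there, at 184.6 against 107.2 TPM in hepatocytes and 146.7 against 25.2 TPM in cardiomyocytes. At 24 h high-dose hepatocytes held between 107.5 and 144.3 TPM, and their vehicle between 3.43 and 44.6 TPM. High-dose cardiomyocytes then averaged 36.4 TPM, against 28.1 TPM in vehicle. The differences from vehicle in those cells were not tested. The most abundant of the 10 increases had 2562 bases and went from 724 TPM to 2005 TPM on average, while vehicle went from 518 to 469 TPM. A transcript of 1314 bases showed another course: it was below vehicle at 9 h (-1.21, called), and at 24 h, after a rise of 1.49, it was 0.58 above vehicle, not a called difference.

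The leading decrease was a transcript of 1363 bases. It stood at 17.4, 16.1, 17.2, 17.8 and 17.5 TPM at 9 h and at 3.68, 2.999, 2.55, 3.66 and 3.18 TPM at 24 h, a log2 change of -2.42 (SE 0.10, adjusted p = 3.63e-08). Vehicle held 12.1 ± 1.3 and 11.7 ± 0.6 TPM at these times, with a log2 change of 0.04. It was called lower with time in hepatocytes too (-2.23), from a low level of 0.812 ± 0.109 TPM. A transcript of 1090 bases had the reverse history: it was 1.63 above vehicle at 9 h, at 1123 TPM against 363 TPM on average, and at 24 h it had returned to 280.2 TPM against 331 TPM, a difference that was not called. A transcript of 1770 bases fell by 1.75 on the log2 scale at the high dose and rose by 1.12 in vehicle and 1.15 at the low dose, all called, so that its means of 57.2 and 52.9 TPM at 9 h in high dose and vehicle became 16.9 and 109 TPM at 24 h.

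Vehicle cultures changed with time as well, with 1607 of 17658 transcripts called (9.10%), 803 higher (4.55%) and 804 lower (4.55%), and with 1491 called without MS-137 and MS-140. These libraries are separate from those at the high dose. Of the 803 transcripts higher at 24 h in vehicle, 756 were tested at the high dose, where 9.79% rose and 15.5% fell, and their median log2 change was -0.05 against 0.88 in vehicle. Of the 804 lower in vehicle, 751 were tested, and 261 (34.8%) fell and 55 rose at the high dose, with a median of -0.35 against -0.86. Over the 17198 transcripts tested at both, 5.69% rose and 7.43% fell at the high dose. The difference between the shares of increases and of decreases that recurred was not tested. Seen from the high dose, 74 of 978 tested transcripts that rose (7.57%) were also called higher in vehicle, against 4.40% of all tested in both, and 261 of 1277 that fell (20.4%) were called lower, against 4.37%.

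The change with time itself differed between the high dose and vehicle for 2781 of 18752 transcripts (14.8%), more positive at the high dose for 1224 (6.53%) and more negative for 1557 (8.30%). Without both of the 24 h vehicle libraries MS-137 and MS-140 the count was 3038. These interaction calls used the same libraries as the comparisons within a dose, so the following counts describe them and are no further evidence. Among the 1224, 459 rose at the high dose with no call in vehicle, 237 fell in vehicle with no call at the high dose, 55 rose at the high dose and fell in vehicle, and 387 were called in neither. Among the 1557, 538 fell at the high dose with no call in vehicle, 353 rose in vehicle with no call at the high dose, 7.51% fell at the high dose and rose in vehicle, and 400 were called in neither. The calls thus included transcripts that moved in vehicle and did not pass the test at the high dose, beside those that moved at the high dose.

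**Figure D4:**
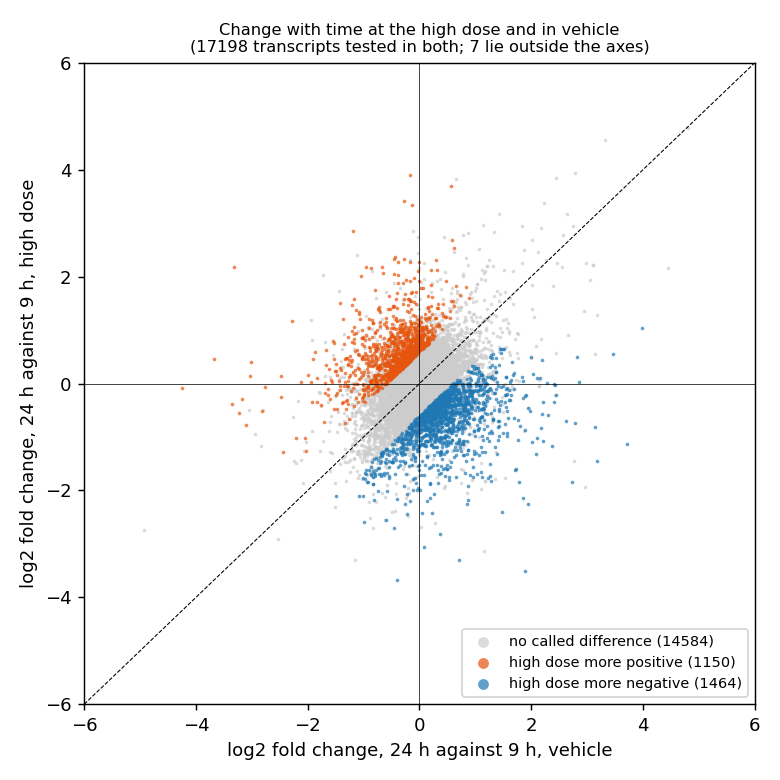
Log2 change from 9 h to 24 h in vehicle (horizontal axis) and at the high dose (vertical axis) for the 17198 transcripts tested in both; the dashed line marks equal changes. Orange points (1150) changed more positively and blue points (1464) more negatively at the high dose by the interaction test, and 7 points lie beyond 6 on either axis.

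Relative to vehicle of the same time, transcripts with a more positive change went from a median log2 difference of -0.21 at 9 h to 0.74 at 24 h, and those with a more negative change from 0.02 to -1.03. Among those with values at both times, 772 of 1155 (66.8%) of the first and 1145 of 1484 (77.2%) of the second stood farther from vehicle at 24 h. Against vehicle, 19.1% of transcripts tested were called at 9 h, 10.9% as lower, and 26.9% at 24 h, 14.9% as lower. By these calls, 490 of the 1224 were higher than vehicle at 24 h and not called at 9 h, 10.8% were higher at both, 246 were lower at 9 h and not called at 24 h, and 39 crossed from lower to higher. Of the 1557, 709 were lower than vehicle at 24 h and not called at 9 h, 278 were lower at both, 201 were higher at 9 h and not called at 24 h, and 56 crossed from higher to lower. Departures that appeared by 24 h were the most frequent course in both directions, beside smaller sets that returned toward vehicle.

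At the low dose 433 of 17584 transcripts were called between the times (2.46%), 0.921% higher and 271 lower (1.54%), and 681 without library MS-145. With all 6 renal groups in one fit the low-dose count was 1186, 682 higher and 504 lower, so that the balance of directions turned. Of the 271 lower, 268 were tested at the high dose and 186 (69.4%) fell there too, which is 14.5% of the tested transcripts that fell at the high dose. Over all transcripts tested at both doses, 5.72% rose and 7.45% fell at the high dose, and 1.56% were lower at the low dose. Without MS-145, 256 of 416 (61.5%) did. Of the tested transcripts higher at the low dose, 24 (15.5%) rose at the high dose and 32 fell, and without MS-145, 49 of 248 (19.8%) rose and 42 fell. The difference between these shares was not tested. The change with time differed between the doses for 1470 of 18798 transcripts (7.82%), more positive at the high dose for 617 (3.28%) and more negative for 853 (4.54%), and for 1914 without MS-145.

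Across transcripts, the log2 change with time at the high dose had Pearson's r of 0.19 with that in vehicle (17198 transcripts) and 0.31 with that at the low dose (17197 transcripts). Transcripts are not independent replicates, and the values share library preparation and annotation. Both correlations moved with single libraries: r with vehicle was 0.15 without MS-137 and 0.02 when MS-140 was left out as well, and r with the low dose was 0.22 without MS-145. Without MS-137 and MS-140, 259 of 736 (35.2%) of the vehicle decreases fell at the high dose, and 54 of 638 (8.46%) of the vehicle increases rose. Of the transcripts that rose at the high dose, 5.45% were then called higher in vehicle, in place of 7.57%. Of those that fell, 20.1% were called lower, in place of 20.4%.

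In hepatocytes at 0.125 mM, 2614 of 16639 transcripts were called between 24 h and 9 h (15.7%), 1431 higher (8.60%) and 1183 lower (7.11%), and in cardiomyocytes at 1.5 mM 859 of 18187 (4.72%), 591 higher (3.25%) and 268 lower (1.47%). The doses differ, so the values stand side by side. Of the transcripts that rose in renal cells, 17.0% of the 877 tested in hepatocytes rose there, against 8.75% of all tested in both, and 59 fell. Of those that fell in renal cells, 14.0% of 847 fell in hepatocytes, against 5.24% of all tested in both, and 99 rose. In cardiomyocytes, 50 of 957 that rose in renal cells rose and 18 fell, and 8.85% of 1153 that fell in renal cells rose and 50 fell, against 3.02% higher and 1.41% lower of all tested in both. Pearson's r across transcripts was 0.12 with hepatocytes (15260 transcripts) and 0.04 with cardiomyocytes (16620 transcripts).

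**Figure D5:**
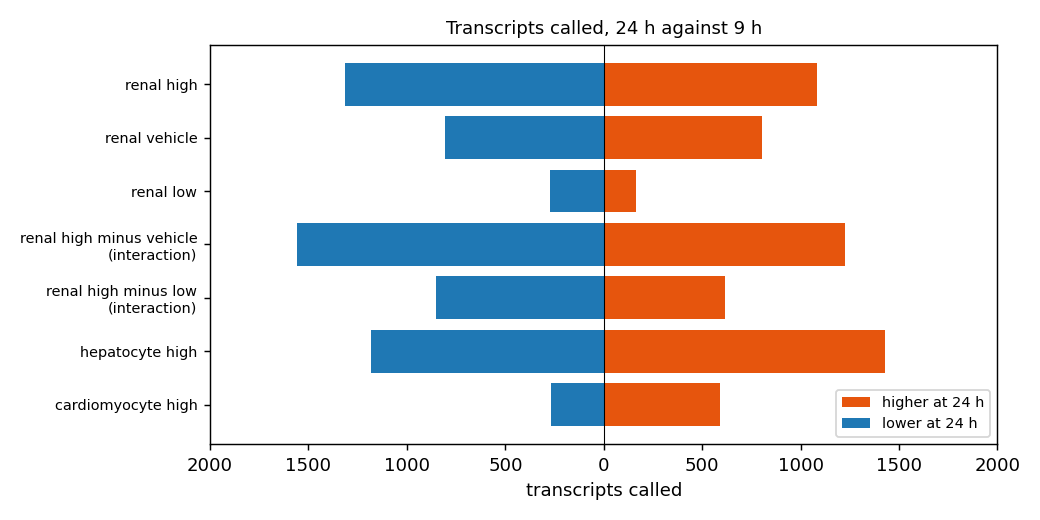
Transcripts called between 24 h and 9 h in each comparison (bars, counts of transcripts; right, higher at 24 h or more positive at the high dose; left, lower or more negative). High-dose renal cells have 1081 and 1316, vehicle 803 and 804 and hepatocytes 1431 and 1183.

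The share of counts on the most abundant RNAs was also followed over time. The 100 most counted transcripts of each library held 23.5% ± 0.2 (SD, n = 5) of transcript counts at 9 h and 23.2% ± 1.0 at 24 h (two-sided exact permutation test, p = 0.540, adjusted p = 0.881). In vehicle the share was 22.6% ± 0.1 and 25.9% ± 1.2, and every 24 h library was above every 9 h library (exact permutation test, p = 0.0079, the smallest that 5 against 5 allows). The change at the high dose was lower than that in vehicle by -3.63 percentage points (exact permutation of doses within each time, p = 3.15e-05, the smallest it can give) and by -3.37 points without MS-137 (p = 9.45e-05). This permutation asks whether dose made no difference at either time, so a difference at 1 time alone also lowers its p. The difference from vehicle was not computed without MS-140, the highest 24 h vehicle library at 27.5%. Against the low dose it was -6.84 points (the same exact permutation test, p = 0.0081), and -2.71 points without MS-145 (p = 0.0127). Of 100 transcripts with the highest counts, 6 rose and 12 fell at the high dose, beside 6.03% and 7.34% of all tested. In vehicle 13 rose and 2 fell, beside 4.55% in either direction of all tested.

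Libraries of the high dose were closer to each other at 9 h than at 24 h. The mean absolute difference in log2 CPM was 0.197 between pairs of 9 h libraries (0.179 to 0.223), 0.280 between pairs of 24 h libraries (0.186 to 0.392) and 0.400 between the times (0.342 to 0.507). Pairs were also closer at 9 h in vehicle, at 0.186 against 0.277 at 24 h, and at the low dose, at 0.252 against 0.518 (0.179 to 0.917) in the 24 h group that holds MS-145. The widest 24 h pairs both held MS-147, with MS-148 (0.392) and MS-150 (0.389), and the closest was MS-148 with MS-150 (0.186). The pairs within the 24 h group thus overlapped with those between the times. Leaving out any 1 of the 10 libraries gave between 2256 and 2634 called transcripts. The mean absolute log2 change over all transcripts tested was 0.38 and its median 0.26.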

How the data were processed

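Poly-A stranded libraries were read as 150-base pairs. The authors pseudo-aligned the reads to the Rnor_6.0 transcriptome with kallisto 0.42.4 and deposited estimated counts for each target, which need not be whole because reads compatible with several transcripts are divided. The deposited TPM values divide these counts by effective length and scale them to a common total, so TPM moves with the most abundant RNAs. Each table lists 65166 targets, 40071 transcripts and 25095 genomic intervals. Main tests used transcripts alone.

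Estimated counts were rounded and fitted by edgeR's quasi-likelihood test (version 4.0.16, R 4.3.3), after filterByExpr and TMM scaling, with Benjamini-Hochberg adjustment over all transcripts tested. The interaction term compared changes with time between doses in one fit. Standard errors are the log2 change divided by the square root of F. Library measures were compared by exact permutation (252 splits; smallest p 0.0079). Depth ranges are given with the results, and at that depth counting error is small for most transcripts tested.

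The named transcripts are the called ones with the largest increase and decrease (mean log2 CPM of at least 3, groups not overlapping) and the most abundant that rose and fell at least 2-fold. Gene names were needed for lists and markers, which were not scored: 0 transcripts matched the gene table of assembly GRCr8. The members, lists and rules were chosen with earlier results of these data known.

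Alternatives used DESeq2 1.42.0, upper-quartile scaling, other filters, limma 3.58.1 on log2(CPM + 0.5) or log2(TPM + 1), other fold thresholds, all 6 renal groups in one fit, whole counts alone, and each library left out. The share of counts on transcripts as a covariate, and leaving out MS-137 alone for single transcripts or with MS-140, were chosen after seeing the data, as was leaving out MS-145 for single transcripts. The fit was tested on simulated data for the main comparison: 153 of 200 changed transcripts among 17941 were recovered, 125 of 133 changed 2-fold or more, with 0 in the wrong direction and 4 unchanged ones called. Figures were drawn with matplotlib 3.10.9.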

Additional observations from a re-analysis of the deposited data

Results flagged for a closer look

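The change with time differed between the high dose and vehicle for 2781 transcripts and between the high dose and the low dose for 1470, by a test of the difference. For ENSRNOT00000019501 the difference was -1.32 from vehicle and -1.50 from the low dose on the log2 scale, and for ENSRNOT00000044711 it was 0.59 from vehicle, with an adjusted p under the threshold and a size just under the fold threshold. With all libraries included, the share of counts on the 100 most counted transcripts changed by -3.63 percentage points relative to vehicle and by -6.84 relative to the low dose.

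The genomic intervals in the tables were used above only in library totals and in the share of counts on transcripts, and single intervals also differed with time. In one fit with the transcripts, 1045 of 8022 intervals tested were called at the high dose (13.0%), 577 higher and 468 lower at 24 h, against 500 of 6504 in vehicle (7.69%) and 42 of 6749 at the low dose (0.622%), with all libraries included. The change with time differed from vehicle for 1003 of 8620 intervals. The methods do not say how the intervals were chosen.

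A single library stood apart from the other 4 of its group in 12 of 54 sets of 5 values examined (5 library measures and 4 transcripts in 6 renal groups), by the ratio of its gap to the range; chance alone gives about 1 in 20, or 2.7 sets. In the high-dose groups these were MS-150, lowest for ENSRNOT00000019501 at 515 TPM, and MS-132, lowest for the mean fragment length implied by the tables at 153.5 bases. At the low dose at 24 h, MS-145 was flagged 5 times: lowest in total (15078809 counts), in transcripts with at least 5 counts (16474) and in ENSRNOT00000019501 (370.1 TPM), and highest in the share of the 100 most counted transcripts (46.4%) and in ENSRNOT00000090258 (13.3 TPM). In vehicle at 24 h, MS-137 was lowest in total (11415878 counts) and in transcripts with at least 5 counts (17192), and MS-140 was highest for ENSRNOT00000090258 (14.7 TPM). Single values were MS-126, highest at the low dose at 9 h for ENSRNOT00000044711 (4891 TPM), and MS-122, lowest in vehicle at 9 h for ENSRNOT00000019501 (1074 TPM).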

How the results depend on the processing

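The 4 named transcripts were followed under each library left out and 4 other settings. These were DESeq2, upper-quartile scaling, all 6 renal groups in one fit, and the share of counts on transcripts as a covariate. Their changes at the high dose kept their direction under these, and the remaining alternatives were not examined for them. The balance of higher and lower calls at the high dose turned without a fold threshold. ENSRNOT00000090258 changed direction within other doses, where it was not called. Its change of 2.44 in vehicle became -0.59 without MS-137 and MS-140, and 2.86 at the low dose became -1.25 without MS-145. Without a fold threshold the calls numbered 7452 at the high dose (3840 higher and 3612 lower, in place of 1081 and 1316), 5842 in vehicle, 6305 for the difference from vehicle and 2536 for the difference from the low dose, and with a 2-fold threshold 923, 587, 1314 and 651, by construction. At the low dose, 2.46% of the transcripts tested were called, 4.23% without a fold threshold and 0.825% with a 2-fold one. Restricting the fit to transcripts with whole counts, which tests fewer, left 1084 at the high dose, 795 in vehicle, 1350 for the difference from vehicle and 830 for that from the low dose. On log2(TPM + 1), limma called 1584 at the high dose, and the mean absolute log2 change was 0.28 in place of 0.38; the cause was not tested. The low-dose share was the least stable, at 3.81% (670 transcripts) by DESeq2 and 6.20% (1186) with all 6 renal groups in one fit, where 57.5% of calls were higher in place of 37.4%. It was 1.17% (329 of 28074) without a filter on low counts and 4.32% (308 of 7128) with whole counts alone, where the number tested also changed. The cause was not tested. Leaving out each library gave 2256 to 2634 calls at the high dose, 1472 to 1684 in vehicle, 1.59% to 3.79% at the low dose (282 transcripts without MS-127, 285 without MS-129, 681 without MS-145), 2715 to 2860 for the difference from vehicle and 1322 to 1914 for that from the low dose, and a mean absolute log2 change of 0.37 to 0.41. The 4 named transcripts stayed called under each omission, with log2 changes of 3.57 to 4.15, 0.97 to 1.15, -4.27 to -3.00 and -1.42 to -1.38 in the order ENSRNOT00000090258, ENSRNOT00000044711, ENSRNOT00000075306 and ENSRNOT00000019501. With the share of counts on transcripts as a covariate, 2604 were called at the high dose, 2357 of them also called without it, and 3293 for the difference from vehicle. Summing counts per gene was not run, since no table paired transcripts with genes. No paired analysis was possible because no replicate number occurs in more than 1 group.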
